A study of Mus musculus with 16 samples.

Results

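Fam177a, Hsd3b2, Mrgprf, Col23a1, Cpxm1 and Sdcbp2 were 6 genes whose array signal separated cells given single siRNAs to Bicc1. They were chosen from measured values: each had passed limma's test either between 1 Bicc1 siRNA and the scrambled control or between 2 Bicc1 siRNAs. The differences that chose them are therefore given below as a description and support nothing about these genes. The 6 genes stood among 9560 genes or unnamed probes tested, and 14 of the 25697 probes on the array were annotated to them.

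RNA came from primary calvarial osteoblasts, bone-forming cells freed with Collagenase P from the skulls of C57BL6/J neonates aged 3 to 9 days and of mixed gender. Cells were plated at 150000 per well, transfected with Lipofectamine 2000, and their RNA was extracted 48 hours later. The 4 groups of 4 arrays received a scrambled siRNA (SC), BICC1_1, BICC1_2 or BICC1_3, so the controls shared the transfection with the treated cells and lacked only a Bicc1-directed siRNA. Whether the 4 replicates of a group were separate cultures or animals is not given in the labels. The p-values below then reflect just the scatter among these arrays, part or all of which may be technical.

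A small interfering RNA is loaded into an Argonaute protein, whose guide strand pairs with a matching transcript and brings about its cleavage. A guide can also lower transcripts that it matches only in part, through the seed near its 5′ end. For this reason knockdown studies often use several siRNAs to a single target and ask which transcripts move with the target and which move with a single siRNA. Bicc1, the target here, encodes an RNA-binding protein with KH and SAM domains. The 6 genes have unlike products: a receptor, a collagen and a secreted carboxypeptidase-like protein at or outside the cell surface, and a PDZ adaptor, a Golgi-associated protein and a steroid-converting enzyme inside the cell.

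Levels are log2 intensities after background correction and quantile normalisation (neqc), and differences are on the same log2 scale, so that a difference of 1 stands for a doubling of signal. An adjusted p comes from limma's test, with Benjamini-Hochberg adjustment over all 9560 tested, and a difference is said to have passed when it was under 0.05. In an RNA sample from a whole culture, fewer cells of a type and less RNA per cell cannot be told apart.

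Bicc1 itself went against the label of 1 group. Its log2 intensity was 10.59, 10.66, 10.59 and 10.38 in SC, 9.51, 9.81, 9.88 and 9.42 with BICC1_1, and 8.87, 9.04, 9.27 and 8.69 with BICC1_2. The arrays labelled BICC1_3 gave 10.70, 10.39, 10.39 and 10.33, within or close to the SC range. Bicc1 signal thus stood at 53.7% of SC with BICC1_1, 33.3% with BICC1_2 and 93.3% in the arrays labelled BICC1_3 (adjusted p = 0.0345, 7.98e-06 and 0.776). These values rest on a single probe. Under 26 alternative settings or omissions of arrays, Bicc1 passed in all for BICC1_2 minus SC. It missed the threshold in 12 for BICC1_1 minus SC (limma adjusted p up to 0.224) and in 17 for BICC1_1 minus BICC1_2. No sign of these differences turned. A gene that tracked Bicc1 would place the groups in the order BICC1_2, BICC1_1, then labelled BICC1_3 and SC, or its reverse. The arrays labelled BICC1_3 and SC overlapped in Bicc1, so such a gene could hold these 2 in either order.

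The arrays detected 11990 to 12863 probes each at a median intensity of 84.8 to 111.3. On 3 arrays, one in each siRNA group, values stood apart in the level of ribosomal protein and NADH dehydrogenase genes. Relative to the remaining 13 arrays, 54 ribosomal genes had a median of -0.81 on replicate 1 of the arrays labelled BICC1_3, of -0.45 on BICC1_1 replicate 3 and of -0.10 on BICC1_2 replicate 3, while the 13 themselves spanned -0.05 to 0.04. For 39 NADH dehydrogenase genes the medians were -1.39, -0.59 and -0.18, against -0.04 to 0.04. Results are given with and without these 3 arrays where they change a call. Of 10 osteoblast markers, Sp7, Col1a1 and Col1a2 were detected on all 16 arrays. By their best probe, Alpl was detected on 15 arrays at a low mean of 5.96 in SC, Phex on 11 and Ibsp on 1. Bglap and Dmp1, which mark mature osteoblasts and osteocytes, were detected on none, and Runx2 and Spp1 had no probe.

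**Figure D1:**
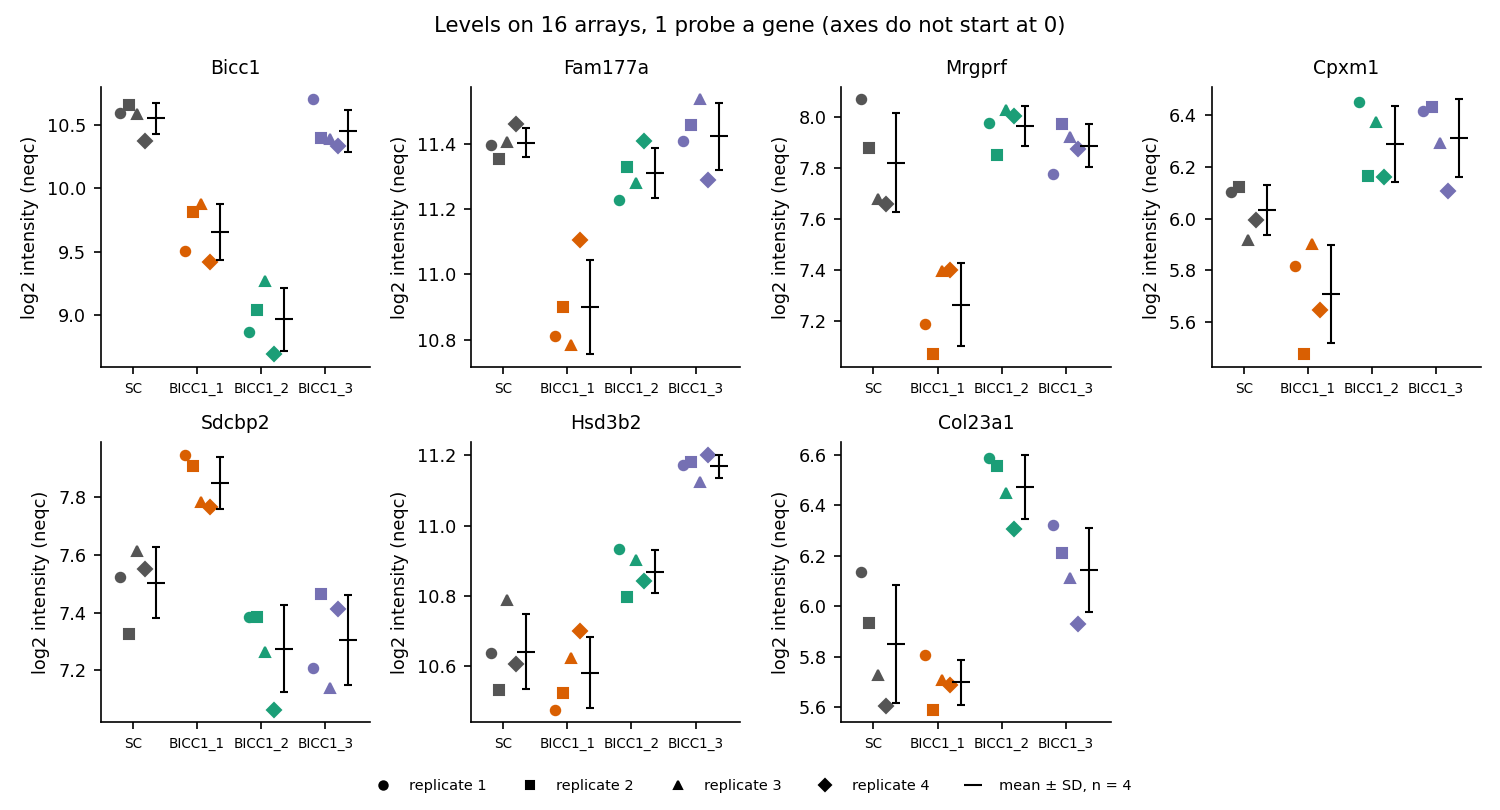
Log2 intensity (neqc, vertical axes not starting at 0) of Bicc1 and the 6 genes on each of 16 arrays, by siRNA group, with 1 probe a gene; symbols give the replicate and the bar beside each group its mean ± SD (n = 4). The BICC1_1 arrays lie apart from the BICC1_2 arrays and from the arrays labelled BICC1_3 for all 6 genes, above them for Sdcbp2 and below them for the other 5.

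The cell-surface and secreted products come first. Mrgprf encodes an orphan member of the Mas-related G protein-coupled receptors, a family best known from sensory neurons. It had 1 probe, detected on all 16 arrays. Its log2 intensity was 8.07, 7.88, 7.68 and 7.66 in SC, 7.19, 7.07, 7.40 and 7.40 with BICC1_1, 7.98, 7.85, 8.03 and 8.0 with BICC1_2, and 7.78, 7.97, 7.92 and 7.88 in the arrays labelled BICC1_3. All 4 BICC1_1 arrays lay below all 12 others, and the other 3 groups overlapped.

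Mrgprf signal with BICC1_1 was 68.0% of SC, a log2 difference of -0.56 (95% interval -0.77 to -0.35) that did not pass (adjusted p = 0.0880), and passed in 1 of 26 alternatives, array quality weights (0.0180). BICC1_2 and the arrays labelled BICC1_3 lay 0.14 and 0.07 above SC (adjusted p = 1.00 and 0.804). The differences that chose the gene were those between siRNAs, -0.70 for BICC1_1 minus BICC1_2 (adjusted p = 0.00810) and -0.62 for BICC1_1 minus the arrays labelled BICC1_3 (adjusted p = 0.0276). In BICC1_2, the group with the least Bicc1, Mrgprf lay inside the SC range on all 4 arrays.

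Col23a1 encodes a collagen anchored in the plasma membrane, whose ectodomain is shed by furin. It too had 1 probe, a dim one with raw intensities of 94.1 to 173.2, detected on all 16 arrays. Log2 intensity was 6.14, 5.94, 5.73 and 5.60 in SC, 5.81, 5.59, 5.71 and 5.69 with BICC1_1, 6.59, 6.55, 6.45 and 6.30 with BICC1_2, and 6.32, 6.21, 6.11 and 5.93 in the arrays labelled BICC1_3. The 4 BICC1_2 arrays lay above every SC and BICC1_1 array but overlapped the arrays labelled BICC1_3, and BICC1_1 lay inside the SC range except for 1 array.

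In Col23a1 the siRNA that stood farthest from control was BICC1_2, at 154% of SC (log2 0.62, 95% interval 0.39 to 0.86), just outside the threshold (adjusted p = 0.0666). It passed in 4 of 26 alternatives (adjusted p 0.00652 to 0.0368), array quality weights and the omission of SC replicate 1 or of replicate 1 of the arrays labelled BICC1_3 among them. BICC1_1 differed from SC by -0.15 and the arrays labelled BICC1_3 by 0.29 (adjusted p = 0.941 and 0.480). The gene was chosen by the difference of -0.77 between BICC1_1 and BICC1_2 (adjusted p = 0.00812). That contrast set the 2 siRNAs that lowered Bicc1 against each other.

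Cpxm1 encodes a secreted protein of the M14 carboxypeptidase family that lacks residues needed for enzyme activity. Its single probe was also dim, with raw intensities of 99.8 to 163.9, and was detected on 15 of 16 arrays, all but BICC1_1 replicate 2. Log2 intensity was 6.11, 6.12, 5.92 and 6.00 in SC, 5.82, 5.47, 5.90 and 5.65 with BICC1_1, 6.45, 6.17, 6.37 and 6.16 with BICC1_2, and 6.42, 6.43, 6.29 and 6.11 in the arrays labelled BICC1_3. Each BICC1_1 array lay below every SC array and each BICC1_2 array above every SC array. The margins were narrow, 5.90 against 5.92 for the nearest BICC1_1 and SC arrays and 6.16 against 6.12 for the nearest BICC1_2 and SC arrays.

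Cpxm1 stood at 79.8%, 119% and 121% of SC with BICC1_1, BICC1_2 and in the arrays labelled BICC1_3. None of these passed (log2 -0.33, 0.25 and 0.28, adjusted p = 0.566, 0.867 and 0.466). It was chosen by BICC1_1 minus BICC1_2 (log2 -0.58, adjusted p = 0.0366) and BICC1_1 minus the arrays labelled BICC1_3 (log2 -0.60, adjusted p = 0.0454). BICC1_2 and the arrays labelled BICC1_3, which differed in Bicc1 by -1.49 log2, differed in Cpxm1 by -0.02 (95% interval -0.24 to 0.20).

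Among the intracellular products, Sdcbp2 encodes syntenin-2, a PDZ-domain adaptor that binds phosphoinositides. Of its 3 probes, 2 were detected and 1 was not on any array (log2 4.69 to 5.09). On the brighter probe the log2 intensity was 7.52, 7.33, 7.61 and 7.55 in SC, 7.95, 7.90, 7.78 and 7.76 with BICC1_1, 7.38, 7.38, 7.26 and 7.06 with BICC1_2, and 7.21, 7.46, 7.14 and 7.41 in the arrays labelled BICC1_3. All 4 BICC1_1 arrays lay above the 12 others, which held for none of the other 5 genes.

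Sdcbp2 signal with BICC1_1 was 127% of SC (log2 0.35, 95% interval 0.14 to 0.55), and 85.3% and 87.2% with BICC1_2 and in the arrays labelled BICC1_3. None of the 3 passed (adjusted p = 0.452, 0.873 and 0.546). The choice rested on BICC1_1 minus BICC1_2 (log2 0.57, adjusted p = 0.0279) and BICC1_1 minus the arrays labelled BICC1_3 (log2 0.54, adjusted p = 0.0458). The dimmer detected probe read 5.82, 5.75, 6.02 and 5.84 in SC, 5.97, 6.30, 6.40 and 5.61 with BICC1_1, 5.27, 5.73, 5.70 and 5.34 with BICC1_2, and 5.78, 5.80, 5.88 and 5.91 in the arrays labelled BICC1_3.

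That second Sdcbp2 probe ran the same way in part. Its group means differed from SC by 0.21, -0.35 and -0.02, so BICC1_1 was the highest group and BICC1_2 the lowest on both probes. On the second probe, however, BICC1_1 replicate 4 lay below every SC array, and the arrays labelled BICC1_3 sat at the SC level. It was detected on 14 of 16 arrays.

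Col23a1 and Cpxm1 ran together over the arrays and Sdcbp2 ran against both, so the promoters of these 3 are shown. The choice of genes by the same groups favours such likeness. Over deviations from group means the correlation was 0.65 for Col23a1 with Cpxm1. For Sdcbp2 it was 0.02 with Col23a1 and -0.08 with Cpxm1. The deviations of Col23a1 and Cpxm1 shared a pattern by replicate number, above the group mean on replicate 1 and below it on replicate 4 in all 4 groups. Whether the promoters bear on these patterns was not tested. The windows run from 250 bases before to 50 after the start site (RefSeq, GRCm38.p6), in lower case with motif matches, none of which overlap, in capitals. The motifs searched on both strands were the GC box (GGGCGG), the CCAAT box (CCAAT), the AP-1 site (TGANTCA), the TATA box (TATAAA), the CRE (TGACGTCA) and the E-box (CACGTG). A promoter was available for 4 of the 6 genes, the fourth being that of Hsd3b2. The Hsd3b2 window (41.3% G and C, 1 CG dinucleotide), not shown, held no match to any of these motifs.
Col23a1, chr11:51289670-51289969, plus strand: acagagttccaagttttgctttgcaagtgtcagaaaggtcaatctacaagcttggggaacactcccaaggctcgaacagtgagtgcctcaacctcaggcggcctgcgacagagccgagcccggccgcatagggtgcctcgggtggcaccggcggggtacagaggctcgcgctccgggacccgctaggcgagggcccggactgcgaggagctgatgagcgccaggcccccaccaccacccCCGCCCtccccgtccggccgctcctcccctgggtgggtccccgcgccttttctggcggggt
Cpxm1, chr2:130397580-130397879, minus strand: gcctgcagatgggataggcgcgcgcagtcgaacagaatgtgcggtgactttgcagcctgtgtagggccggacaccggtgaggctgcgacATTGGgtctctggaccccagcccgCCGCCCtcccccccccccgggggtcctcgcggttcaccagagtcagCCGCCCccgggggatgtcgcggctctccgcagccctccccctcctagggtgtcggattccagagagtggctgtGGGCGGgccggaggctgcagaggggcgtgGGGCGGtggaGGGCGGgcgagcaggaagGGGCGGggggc
Sdcbp2, chr2:151572373-151572672, plus strand: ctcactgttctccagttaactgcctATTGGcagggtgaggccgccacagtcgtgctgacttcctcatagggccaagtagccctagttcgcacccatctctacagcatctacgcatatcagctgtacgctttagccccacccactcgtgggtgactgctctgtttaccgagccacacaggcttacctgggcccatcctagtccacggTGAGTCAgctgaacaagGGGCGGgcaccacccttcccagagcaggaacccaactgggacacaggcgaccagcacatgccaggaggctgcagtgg
The Cpxm1 window was the richest in G and C (72.7%, with 26 CG dinucleotides) and held 6 GC boxes and 1 CCAAT box. The Col23a1 window (67.7%, 24 CG dinucleotides) held 1 GC box. The Sdcbp2 window (59%, 10 CG dinucleotides) held 1 GC box, 1 CCAAT box and 1 AP-1 site. Of 32851 promoter windows of this length, 35.7% held a GC box, 37.4% a CCAAT box and 7.81% an AP-1 site, while the TATA box, CRE and E-box, absent from these 3 windows, were in 13.6%, 1.79% and 7.15%. A match says only that these letters are present.

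Fam177a encodes a small protein whose human counterpart resides at the Golgi. It had 2 probes, both detected on all 16 arrays. On the brighter probe its log2 intensity was 11.39, 11.35, 11.40 and 11.46 in SC, 10.81, 10.90, 10.78 and 11.10 with BICC1_1, 11.23, 11.33, 11.28 and 11.41 with BICC1_2, and 11.41, 11.46, 11.53 and 11.29 in the arrays labelled BICC1_3. The BICC1_1 arrays lay below all 12 others.

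Fam177a signal with BICC1_1 was 70.6% of SC (log2 -0.50, 95% interval -0.67 to -0.34), one of the differences that chose it (adjusted p = 0.0440). BICC1_2, with the lower Bicc1, stood at 93.8% of SC and the arrays labelled BICC1_3 at 101% (adjusted p = 1.00 and 0.944). The other choosing differences were BICC1_1 minus BICC1_2 (log2 -0.41, adjusted p = 0.0430) and BICC1_1 minus the arrays labelled BICC1_3 (log2 -0.52, adjusted p = 0.0276). Over the 13 remaining arrays, with the outlying 3 left out, the difference from SC was -0.46 and missed the threshold (adjusted p = 0.0590).

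The other Fam177a probe gave a smaller difference in the same direction. It read 10.81, 10.78, 10.87 and 10.81 in SC, 10.67, 10.68, 10.66 and 10.50 with BICC1_1, 10.79, 10.76, 10.89 and 10.68 with BICC1_2, and 10.79, 10.71, 10.78 and 10.76 in the arrays labelled BICC1_3. The 4 BICC1_1 arrays again lay below every SC array, by -0.19 on average, against -0.04 and -0.06 for BICC1_2 and the arrays labelled BICC1_3. BICC1_1 replicate 4 was the highest of its group on the brighter probe and the lowest on this one. Fam177a lies on chromosome 12 beside a near namesake, Fam177a2, with Srp54b the only gene between them. The annotation used paired no probe with Fam177a2, and whether either probe reads both transcripts was not tested.

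**Figure D2:**
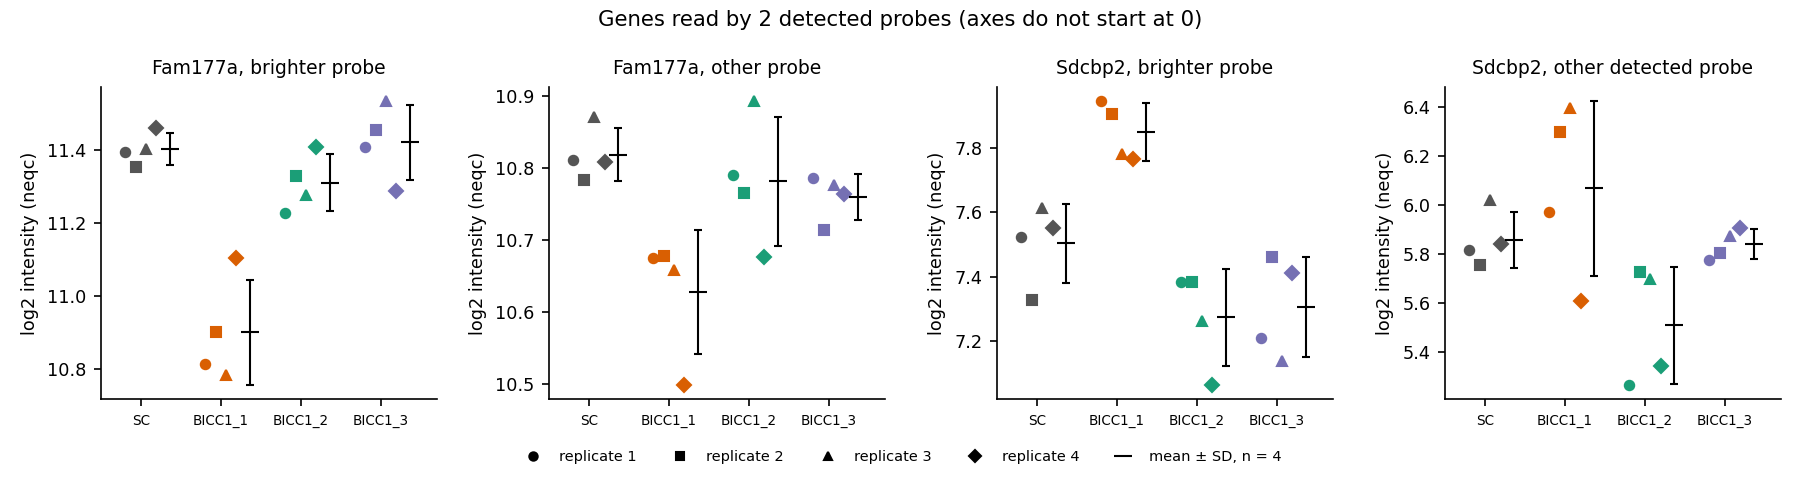
Log2 intensity (neqc, vertical axes not starting at 0) on each of 16 arrays for the genes read by 2 detected probes, Fam177a and Sdcbp2, with group mean ± SD (n = 4). Both Fam177a probes place all BICC1_1 arrays below all SC arrays, by -0.50 and -0.19 on average, while on the second Sdcbp2 probe 1 BICC1_1 array falls below the SC range.

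Hsd3b2 encodes a 3-beta-hydroxysteroid dehydrogenase/isomerase, an enzyme of steroid hormone synthesis. Of its 6 probes 1 was detected, on all 16 arrays, and the other 5 were detected on none (log2 4.48 to 5.22). The detected probe gave 10.64, 10.53, 10.79 and 10.61 in SC, 10.48, 10.52, 10.62 and 10.70 with BICC1_1, 10.93, 10.80, 10.90 and 10.84 with BICC1_2, and 11.17, 11.18, 11.12 and 11.20 in the arrays labelled BICC1_3. The arrays labelled BICC1_3 lay above all 12 others, BICC1_2 lay between them and SC with no overlap, and BICC1_1 overlapped SC.

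Hsd3b2 signal in the arrays labelled BICC1_3, where Bicc1 did not pass, was 144% of SC (log2 0.53, 95% interval 0.38 to 0.68). This difference chose the gene (adjusted p = 0.0128), together with BICC1_1 minus the arrays labelled BICC1_3 (log2 -0.59, adjusted p = 0.00318). BICC1_2 stood at 117% of SC and BICC1_1 at 95.9% (adjusted p = 0.578 and 0.968). Over the 13 arrays without the outlying 3, the difference from SC kept its size, 0.53, and missed the threshold (adjusted p = 0.0572).

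The near relatives Hsd3b1, Hsd3b4, Hsd3b5 and Hsd3b6, on chromosome 3 like Hsd3b2, were each detected on no array. Hsd3b7 and Nsdhl, listed in the same family, were detected on all 16 arrays, at means of 9.33 and 7.28 in SC. Neither passed in any comparison between 2 groups. Of 5 steroidogenic cell markers, Star, Cyp17a1, Cyp21a1 and Nr5a1 were detected on none, and Cyp11a1 was detected on 5 of 16 arrays, with a level of 5.33 to 5.54 in SC and 5.25 to 5.64 in the arrays labelled BICC1_3. With 1 probe reading signal and 5 reading none, the Hsd3b2 result rests on a single probe. The annotation used paired no probe with Hsd3b3, and whether the detected probe also reads a relative was not tested.

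**Figure D3:**
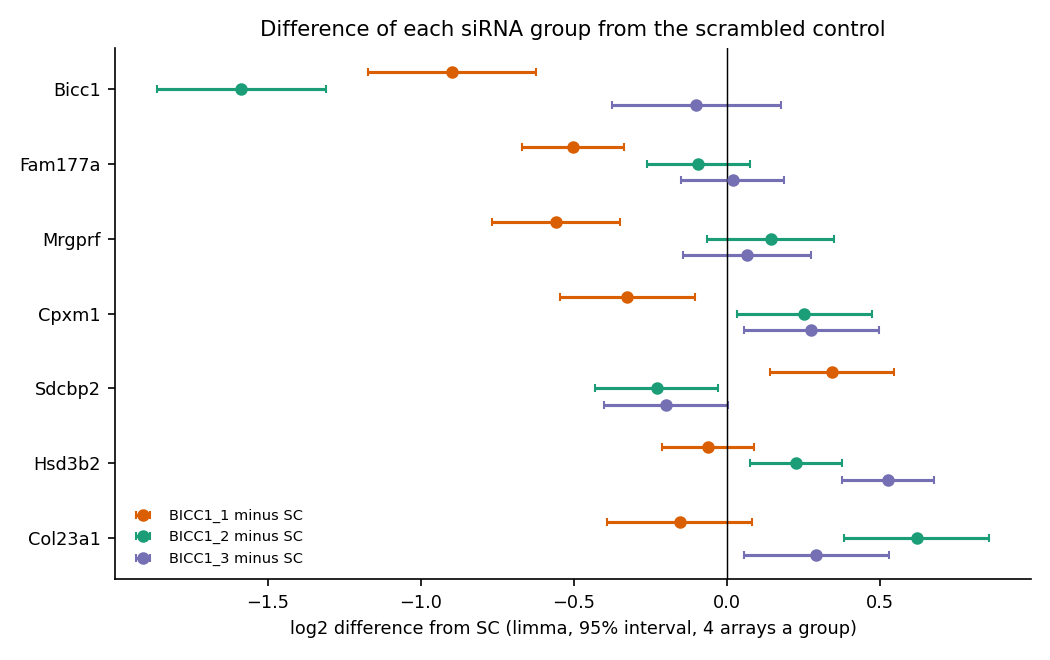
Log2 difference of each siRNA group from SC (horizontal axis) for Bicc1 and the 6 genes, with 95% intervals from limma (4 arrays a group). Bicc1 fell by 0.90 with BICC1_1 and fell by 1.59 with BICC1_2, while for these 2 siRNAs the estimates of 5 genes, all but Fam177a, lie on opposite sides of 0. The intervals include 0 for Hsd3b2 and Col23a1 with BICC1_1 and for Mrgprf with BICC1_2. None of these 5 genes passed against SC with either siRNA. All of the 5 but Hsd3b2 were chosen by BICC1_1 minus BICC1_2, which favours opposite signs.

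Counted over the 6 genes, 12 of 36 differences between 2 groups passed, and 11 of the 12 involved BICC1_1. These counts restate the choice of the genes. Of all 9560 tested, 0.0209% passed in BICC1_1 minus SC (1 of the 6, Fam177a), 0.0523% in BICC1_2 minus SC (0 of the 6) and 0.0105% in the arrays labelled BICC1_3 minus SC (1 of the 6, Hsd3b2). Between siRNAs, 0.282% passed in BICC1_1 minus BICC1_2 (5 of the 6), 0.0732% in BICC1_1 minus the arrays labelled BICC1_3 (5 of the 6) and 0.115% in BICC1_2 minus the arrays labelled BICC1_3 (0 of the 6). In both contrasts with BICC1_1, 1 of the 5 was higher (Sdcbp2) and 4 were lower, where 0.146% and 0.136% of all genes were higher and lower against BICC1_2 and 0.0105% and 0.0628% against the arrays labelled BICC1_3. Beside the counts of 0 by limma, 501 genes had an unadjusted p under 0.05 in BICC1_2 minus SC and 792 in BICC1_2 minus the arrays labelled BICC1_3.

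The arrays of BICC1_1 did not overlap those of SC for 4 of the 6 genes, where 6.35% of all genes did not overlap. The counts were 3 genes for BICC1_2 against SC (6.6% of all genes) and 1 for the arrays labelled BICC1_3 against SC (6.59%). Between siRNAs, all 6 genes separated BICC1_1 from BICC1_2 (4.56%) and from the arrays labelled BICC1_3 (2.79%), and 1 gene, Hsd3b2, separated BICC1_2 from the arrays labelled BICC1_3 (3.84%). The median absolute difference of the 6 genes was 0.58 and 0.57 in the 2 contrasts with BICC1_1, against 0.08 over all genes in each, and 0.09 between BICC1_2 and the arrays labelled BICC1_3, against 0.09 over all genes. The genes were chosen by differences between these same groups, so these counts and medians follow from the choice and are a description.

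The 3 pairs of siRNAs share arrays, so their values are set side by side. In BICC1_2 minus the arrays labelled BICC1_3, the pair with the widest gap in Bicc1 (-1.49, adjusted p = 2.03e-05), Fam177a differed by -0.11 (95% interval -0.28 to 0.06), Mrgprf by 0.08 (-0.13 to 0.29) and Sdcbp2 by -0.03 (-0.23 to 0.17). Col23a1 differed there by 0.33 (0.09 to 0.57) and Hsd3b2 by -0.30 (-0.45 to -0.15), with intervals that exclude 0 before adjustment, but neither passed (adjusted p = 0.441 and 0.203). In the authors' deposited table Hsd3b2 did pass here (-0.29, adjusted p = 0.0477) and in BICC1_1 minus BICC1_2 (-0.27, 0.0489). A missed threshold does not show that 2 siRNAs acted alike.

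The genes nearest to the threshold were as follows. In BICC1_1 minus the arrays labelled BICC1_3, Cpxm1 and Sdcbp2 were the last 2 genes inside, at adjusted p = 0.0454 and 0.0458, and Dipk1b was the first outside (log2 0.40, 0.0706). In BICC1_1 minus SC, Fam177a was the last inside and Sphk1 (0.37, 0.0647) and Mrgprf the first outside. Hsd3b2 was the single gene inside in the arrays labelled BICC1_3 minus SC (0.0128), and Zdhhc18 was the first outside (0.54, 0.0766). In BICC1_2 minus SC the last inside lay at 0.0134, and Col23a1 was the first outside, at 0.0666.

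Whether any of the 6 followed Bicc1 was read in 3 ways. The first was the order of the group means, which come from the same arrays as the choice of genes and are a description. Fam177a rose in the order BICC1_1, BICC1_2, SC, labelled BICC1_3, and Sdcbp2 in the order BICC1_2, labelled BICC1_3, SC, BICC1_1. Mrgprf and Col23a1 shared the order BICC1_1, SC, labelled BICC1_3, BICC1_2, and Cpxm1 and Hsd3b2 shared BICC1_1, SC, BICC1_2, labelled BICC1_3. No gene of the 6 (0 of 6) had the Bicc1 order or its reverse, which 2.59% and 3.16% of all 9560 genes had. With shares that small, 0 of 6 does not set these genes apart from others. The Bicc1 order is also partly arbitrary, since SC and the arrays labelled BICC1_3 were not separated in Bicc1. In all 6 genes BICC1_1 stood at an end of the order, whereas in Bicc1 it did not. The choice of genes favours this, since 11 of the 12 differences that passed involved BICC1_1. The share of all genes with BICC1_1 at an end was not counted. Neighbours in these orders often overlapped, as the values by array show.

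The second reading set the mean of BICC1_1 and BICC1_2, where Bicc1 differed by -1.19 log2, against the mean of SC and the arrays labelled BICC1_3. It uses the same arrays as the contrasts that chose the genes, so it is not independent of them. By limma, 4 of 9560 genes passed (0.0418%), Bicc1 and Ergic1 among them, and 0 of the 6 did, with 481 genes at an unadjusted p under 0.05. Fam177a came nearest (log2 -0.31, 95% interval -0.43 to -0.19, adjusted p = 0.0758). It passed here in 5 of 25 alternatives (adjusted p 0.0176 to 0.0484): quantile normalisation with no background correction (0.0466), the authors' deposited table (0.0315), array quality weights (0.0470), and without BICC1_1 replicate 4 or replicate 4 of the arrays labelled BICC1_3. Hsd3b2, Mrgprf, Cpxm1, Sdcbp2 and Col23a1 differed by -0.18, -0.24, -0.17, 0.16 and 0.09, with adjusted p from 0.625 to 0.994.

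The third reading asked whether arrays of 1 group with more Bicc1 also had more of the gene. Because Bicc1 falls into separate levels by group, the correlation was taken over the 16 deviations from the group means, not over the pooled levels. Pearson's r with Bicc1 was -0.43 for Fam177a, 0.34 for Col23a1, 0.28 for Cpxm1, -0.05 for Mrgprf, -0.04 for Hsd3b2 and -0.02 for Sdcbp2 (permutation p = 0.180, 0.168, 0.373, 0.855, 0.877 and 0.953, two-sided). After Benjamini-Hochberg adjustment over these 6 relations the lowest was 0.539. Spearman's rho was -0.39, 0.36, 0.26, 0.01, -0.03 and -0.04 in the same order (permutation p = 0.201, 0.179, 0.418, 0.980, 0.932 and 0.900).

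No relation with Bicc1 inside the groups was therefore detected for any of the 6 genes. Without the 2 arrays farthest from the median of Bicc1's deviation, r was -0.36, 0.34, 0.15, -0.10, -0.17 and -0.28 in that order. With the 13 arrays left after omitting the outlying 3 it was -0.35, 0.35, -0.13, -0.24, -0.29 and 0.26, so the sign turned for Cpxm1 and Sdcbp2. The deviations of some genes also went with the replicate number. Col23a1 and Cpxm1 lay above their group mean on replicate 1 and below it on replicate 4 in all 4 groups. Bicc1 lay below it on replicate 4 in all 4, and Fam177a lay below it on replicate 1 in all 4. The share of all genes with such patterns was not counted. With the mean of each replicate number removed as well, a check added after this was seen and given with no test, r was -0.34 for Fam177a, 0.06 for Col23a1, 0.0049 for Cpxm1, -0.08 for Mrgprf, 0.04 for Hsd3b2 and -0.14 for Sdcbp2. With median scaling in place of quantile normalisation, r was 0.19 to 0.54 for all 6, and none passed after adjustment (0.137 to 0.550).

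**Figure D4:**
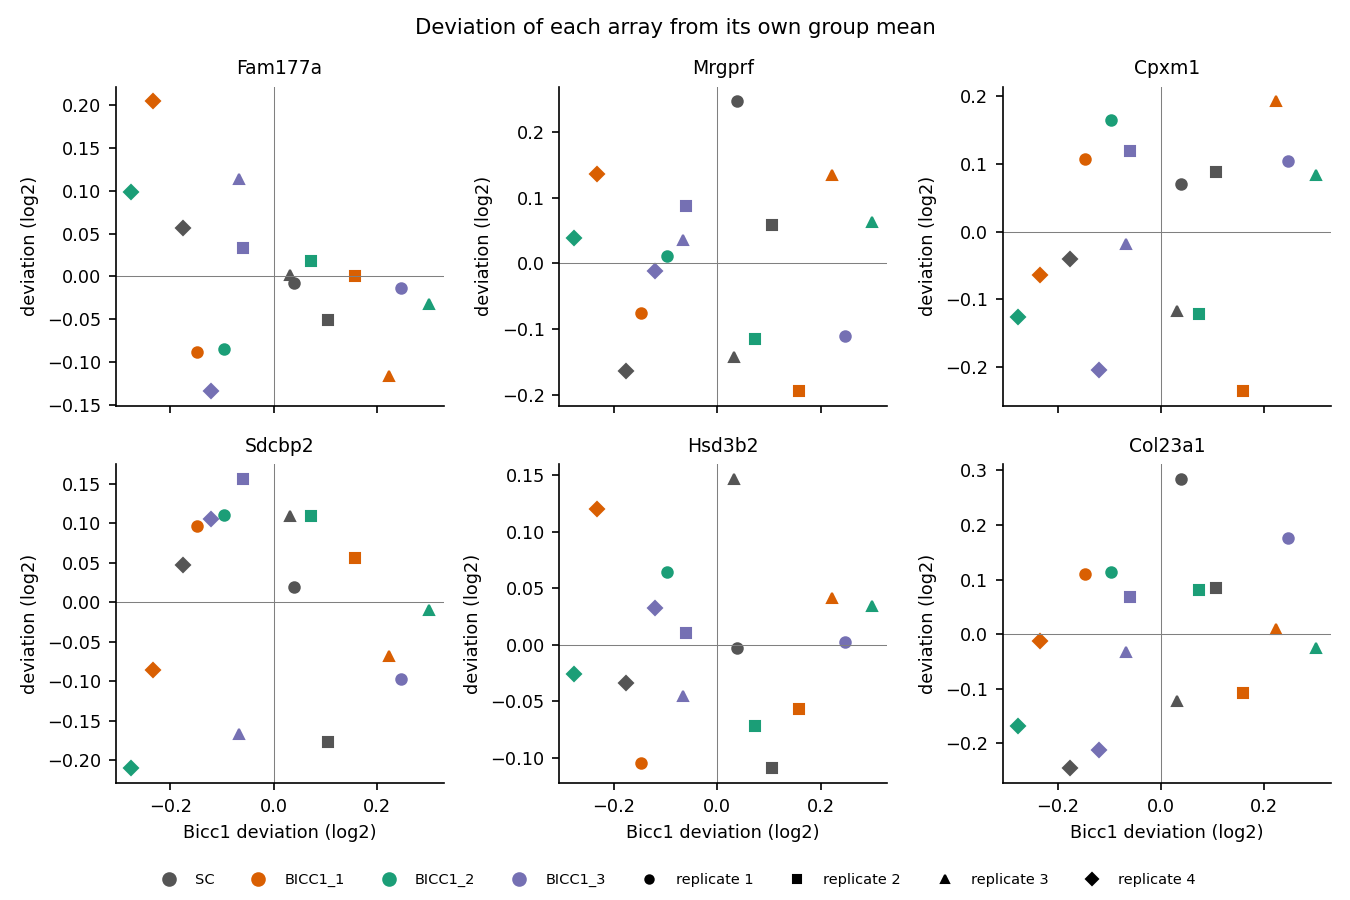
Deviation of each of 16 arrays from its own group mean (log2) for each of the 6 genes (vertical axes) against that of Bicc1 (horizontal axes), coloured by siRNA group and shaped by replicate. No relation was detected: r runs from -0.43 for Fam177a to 0.34 for Col23a1, and none passed a permutation test. A missed test does not show that no relation exists, and with median scaling r was 0.19 to 0.54 for all 6.

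Over the 16 arrays the 6 genes moved with one another, which the choice of genes by the same groups favours. The strongest likeness was between Mrgprf and Cpxm1 (r = 0.85, or 0.47 over deviations within groups) and between Col23a1 and Cpxm1 (0.82, or 0.65 within groups). Sdcbp2 ran against Mrgprf (-0.85, or -0.32 within groups) and Cpxm1 (-0.80, or -0.08). Fam177a and Mrgprf, alike over all arrays (0.80), were nearly unrelated within groups (0.08). These values are descriptions over arrays that share groups and scaling.

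For each of the 6, the 3 named genes with the most similar pattern over the 16 arrays were found by Pearson's r, the other 5 included. For Mrgprf they were Olfml3 (0.87), Cpxm1 (0.85) and Cxcl1 (0.84), a neutrophil chemokine whose mean was 8.36 in SC, 7.40 with BICC1_1, 8.52 with BICC1_2 and 8.20 in the arrays labelled BICC1_3. For Cpxm1 they were the platelet chemokine gene Ppbp (0.89), Mrgprf (0.85) and Ccn5 (0.85), a matricellular protein gene. For Col23a1 they were Ccn5 (0.86), Spon2 (0.83) and the BMP-family gene Gdf10 (0.82).

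Ccn5 was thus among the nearest genes of both Col23a1 and Cpxm1, with means of 11.61, 11.56, 12.06 and 11.91 in SC, BICC1_1, BICC1_2 and the arrays labelled BICC1_3. Hsd3b2 ran most closely with Hsd17b7 (0.82), which encodes an enzyme of cholesterol synthesis, Ccng2 (0.79) and Sh3bgrl2 (0.79). Fam177a did so with Aoc3 (0.85), Tmem109 (0.83) and Chst1 (0.83), and Sdcbp2 with Abca3 (0.84), Epha2 (0.80) and Gm5662 (0.79). Over the 13 arrays without the 3 that stood apart, r for these genes was 0.76 to 0.91. These are part of the arrays that picked the genes, so this is no independent check. Over deviations within groups r was 0.28 (Col23a1 with Gdf10) to 0.80 (Cpxm1 with Ccn5).

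The relatives of the 6 genes were then read from family lists. Of 30 genes of steroid hormone synthesis, 13 were tested, and Hsd3b2 was the only one to pass in any comparison between 2 groups. Akr1c18, which inactivates progesterone, lay 0.43, 0.25 and 0.26 above SC with BICC1_1, BICC1_2 and in the arrays labelled BICC1_3, and Hsd17b1, an oestradiol-forming enzyme, at -0.41, 0.12 and -0.20. The list's median difference was 0.06, 0.14 and 0.05, against 0.00, 0.00 and -0.01 over all genes.

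Of 12 transmembrane collagens and their integrin and shedding partners, 8 were tested, and Col23a1 was the only one to pass. All 8 lay below SC with BICC1_1 (median -0.13, against 0.00 over all genes, of which 50.6% lay above 0), while with BICC1_2 4 lay above and 4 below, and in the arrays labelled BICC1_3 3 lay above and 5 below. Col25a1, another membrane collagen, differed from SC by -0.03, -0.19 and -0.07.

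Among Mas-related receptors 3 of 16 were tested, and Mrgprg differed from SC by 0.19, 0.15 and 0.16. Of 15 M14 carboxypeptidases 4 were tested, and Cpd, a carboxypeptidase of the trans-Golgi network, differed by 0.23, -0.17 and 0.38. Akr1c18, Hsd17b1, Col25a1, Mrgprg and Cpd missed the threshold in each comparison. Of 16 genes of syntenins, syndecans and their partners 15 were tested, and Sdcbp, which encodes syntenin-1, lay 0.22, 0.19 and 0.28 above SC, while Gpc4, a glypican, lay at -0.11, 0.02 and -0.21, also short of the threshold. Mrgprf, Cpxm1 and Sdcbp2 were the only members of these 3 lists to pass between any 2 groups. Of 3 FAM177 genes, Fam177a itself was the 1 tested.

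Summed markers of other cell types are given by group, since the 6 genes were read in whole cultures. The summed log2 level of 4 tested macrophage markers of 7 was 12.08 to 12.28 in SC, 12.12 to 13.08 with BICC1_1, 11.81 to 12.27 with BICC1_2 and 12.22 to 12.62 in the arrays labelled BICC1_3, and Ptprc was not detected. For 4 tested skeletal muscle markers of 6 it was 10.66 to 11.11 in SC. It was 11 to 11.24, 11.18 to 11.40 and 10.77 to 11.08 with BICC1_1, BICC1_2 and in the arrays labelled BICC1_3. BICC1_2 thus lay above SC with no overlap, where 6.6% of all genes did not overlap. Acta1, the brightest of the 4 and detected on all 16 arrays, differed from SC by 0.50, 0.42 and 0.21 in that order. Myod1 and Ckm were not detected, while Myog, Myl1 and Des were detected on 13, 11 and 8 of 16 arrays by their best probe. The 2 tested endothelial markers of 5 summed to 7.62 to 8.15 in SC and 7.17 to 7.64 in the arrays labelled BICC1_3, with Pecam1, Cdh5 and Kdr not detected.

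Osteoblast markers, 5 of 10 tested, summed to 14.28 to 14.48 in SC, 14.14 to 14.44 with BICC1_1, 14.30 to 14.61 with BICC1_2 and 14.36 to 14.77 in the arrays labelled BICC1_3. Chondrocyte (3 of 5 tested), adipocyte (2 of 5), osteoclast (4 of 5) and smooth muscle (4 of 6) sums overlapped between SC and each siRNA group. No gene of any marker list passed in any comparison. The part of these markers in the differences of the 6 genes was not tested.

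How far each call depended on single arrays was read from 26 alternatives, 16 of which left out 1 array. No call changed sign under any of them, and none of the 12 passed under every one. Mrgprf in BICC1_1 minus BICC1_2 passed in 25 of 26, missing with median scaling (adjusted p = 0.0690), and Col23a1 in the same contrast in 25 of 26, missing without BICC1_2 replicate 2 (0.0552). Hsd3b2 in BICC1_1 minus the arrays labelled BICC1_3 passed in 24 of 26, missing with median scaling (0.225) and separate fits (0.347).

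Median scaling ended 11 of the 12 calls, separate fits of only the groups compared ended 10, and omission of the 3 outlying arrays ended 6. Fam177a in BICC1_1 minus SC passed in 8 of 26 (adjusted p 0.00823 to 0.528) and missed on leaving out any 1 of 13 arrays, all but BICC1_1 replicate 4 and replicates 1 and 4 of the arrays labelled BICC1_3 (0.0504 to 0.167). In BICC1_1 minus BICC1_2 it missed without any 1 of 12 arrays, all but BICC1_1 replicate 4 and replicates 1, 3 and 4 of the arrays labelled BICC1_3 (0.0557 to 0.150). Against the arrays labelled BICC1_3 it missed without BICC1_1 replicate 1 or 2, BICC1_2 replicate 2, or, among the arrays labelled BICC1_3, replicate 2 or 3 (0.0507 to 0.120). Without the 3 arrays that stood apart, both latter calls were missed too (0.0744 and 0.0817).

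Hsd3b2 in the arrays labelled BICC1_3 minus SC missed without SC replicate 1, 2 or 4 or without replicate 4 of the arrays labelled BICC1_3 (0.0660 to 0.0988). Mrgprf in BICC1_1 minus the arrays labelled BICC1_3 missed without BICC1_1 replicate 1 or 2, BICC1_2 replicate 2, or, among the arrays labelled BICC1_3, replicate 2, 3 or 4 (0.0507 to 0.120). For Sdcbp2 in BICC1_1 minus BICC1_2 the arrays were BICC1_1 replicates 1 and 2 and BICC1_2 replicates 2, 3 and 4 (0.0606 to 0.0952). These 3 calls passed in 19, 17 and 18 of 26.

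Cpxm1 in BICC1_1 minus BICC1_2 passed in 11 of 25 and missed without SC replicate 1 or 2, BICC1_1 replicate 1, 2 or 4, or any BICC1_2 array (0.0506 to 0.128). It could not be tested with a filter that asks for detection on all 16 arrays. Against the arrays labelled BICC1_3, Cpxm1 passed in 5 of 25 and Sdcbp2 in 5 of 26. Cpxm1 missed there without any 1 of 12 arrays, all but BICC1_1 replicate 3, BICC1_2 replicates 1 and 4 and replicate 4 of the arrays labelled BICC1_3 (0.0594 to 0.164). Sdcbp2 missed without any 1 of 14, all but SC replicate 2 and BICC1_2 replicate 4 (0.0609 to 0.223). Without the 3 arrays that stood apart, both were missed (0.0817 and 0.128).

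The size of several differences depended on how the intensities were transformed. With quantile normalisation alone, Col23a1 in BICC1_1 minus BICC1_2 was -0.41, and Cpxm1 was -0.30 there and -0.32 against the arrays labelled BICC1_3. In the authors' deposited table of log2 values, Col23a1 was -0.18 and Cpxm1 -0.13 and -0.14, Mrgprf -0.33 and -0.29, and Sdcbp2 0.27 and 0.25. The direction was the same in each. The differences from SC shrank likewise: Col23a1 with BICC1_2 was 0.34 with quantile normalisation alone and 0.15 in the authors' deposited table, where Cpxm1 with BICC1_2 was 0.06 and Mrgprf with BICC1_1 was -0.26. None of these passed.

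**Figure D5:**
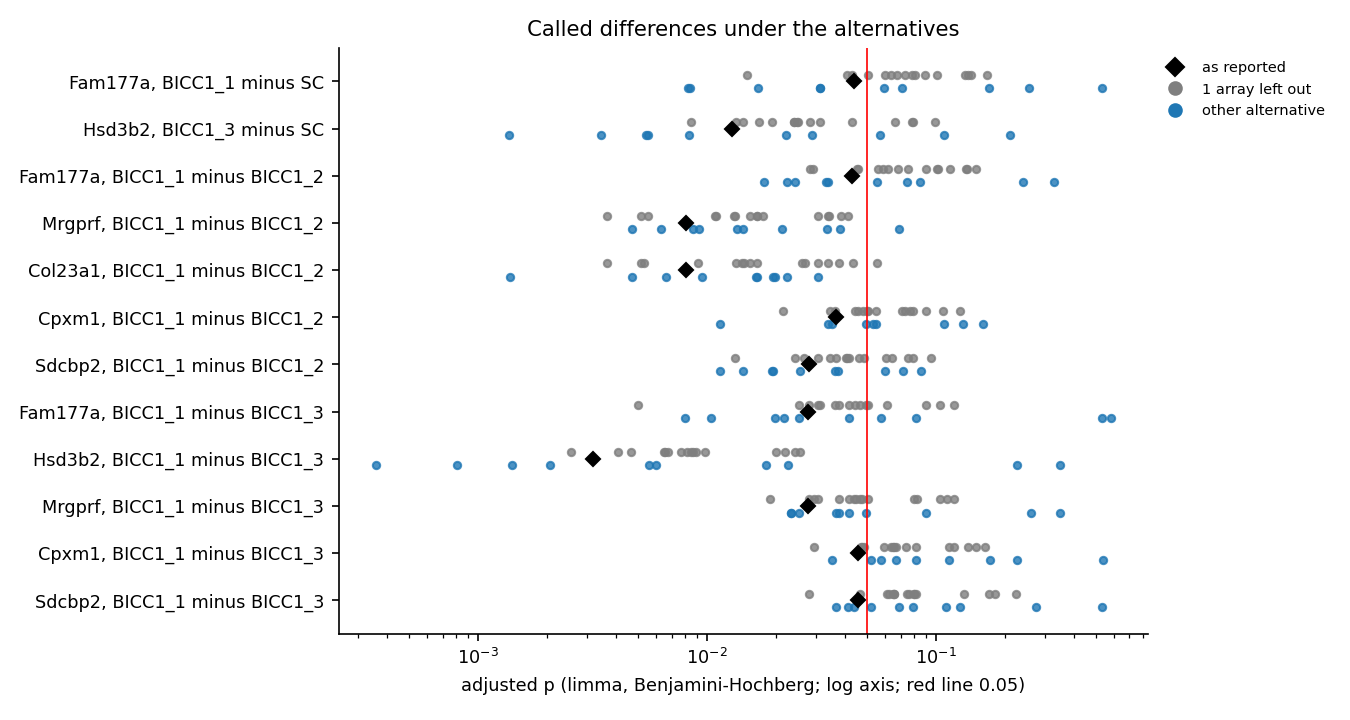
Adjusted p (limma, Benjamini-Hochberg, log axis) of the 12 called differences of the 6 genes as reported (black diamond) and under each alternative, with 1 array left out (grey) or another setting (blue), and a red line at 0.05. Mrgprf and Col23a1 in BICC1_1 minus BICC1_2 and Hsd3b2 in BICC1_1 minus BICC1_3 stay left of the line in 25, 25 and 24 of 26 alternatives, and Cpxm1 and Sdcbp2 in BICC1_1 minus BICC1_3 in 5.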

How the data were processed

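Total RNA of 16 samples was read on Illumina single-colour arrays, 4 arrays a group by the sample titles. The members and gene lists were chosen with earlier results of these data known. The authors deposited a mean bead intensity per probe and array on a linear scale, not normalised per the file headers, beside a detection score that the file headers call a p-value, though it was near 1 for bright probes (median 1 over the 1000 brightest) and near 0 for dim ones (0.0652 over the 1000 dimmest), so 1 minus this score was used as detection p. The submitters' processing notes name GenomeStudio. The authors also deposited a log2 table whose transform is not given in the sources used here. It ranked probes as the intensity does (Spearman 1) and served as an alternative.

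Intensities were processed with neqc (offset 16) of limma 3.58.1 in R 4.3.3, which corrects the background from the detection p, normalises quantiles and converts to log2. Of 25697 probes, 23978 carried 1 symbol in the platform annotation, 0 several and 1719 none. Probes with detection p under 0.05 on at least 4 arrays were kept (12802), and the brightest stood for its gene, leaving 9560 tested. All 8 kept probes of the members are reported, and 6 were never detected. One limma model over the 4 groups (lmFit, eBayes, 12 residual degrees of freedom) gave all contrasts, 95% intervals and Benjamini-Hochberg adjusted p. Within-group correlations were tested with 100000 permutations. Data were simulated for BICC1_1 minus SC over 9560 genes, with 100 genes changed by 0.5 log2 and 100 by 1 log2. The fit called 70% and 99% of these changes, and 6.63% of its calls were false. In the measured contrast just 2 genes passed, and with so few the Benjamini-Hochberg cut-off on p is stricter than in the simulation. The simulated shares therefore do not carry over to the measured contrasts, and a missed threshold does not show that a change of 0.5 log2 was absent. The number of arrays limits the precision: the median standard error between 2 groups was 0.108 log2. No 2 arrays held identical values (0 pairs).

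Genes named were every probe of the members and Bicc1, the 3 genes nearest to each member by correlation, and from each family list every gene that passed or otherwise the 2 with the largest mean difference from SC. Alternatives were scaling, background correction, the deposited log2 table, probe filters, every kept probe, array weights, separate fits, the replicate block, the 3 arrays that stood apart and each single array. File headers name no slide, so a slide block was not run.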

Additional observations from a re-analysis of the deposited data

Results flagged for a closer look

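In 2 of 36 sets of 4 arrays a single array lay far from the other 3, where chance alone gives about 1 in 20. On the second Fam177a probe, BICC1_1 replicate 4 read 10.50, with a gap to its nearest neighbour of 0.889 of the group's range. For Bicc1, replicate 1 of the arrays labelled BICC1_3 read 10.70, with a gap of 0.834 of the range, and this array is one of the 3 that stood apart.

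Effects against SC differed between siRNAs in 13 tested differences, 10 of them the values that chose the 6 genes and 3 those of Bicc1. BICC1_1 minus BICC1_2 was -0.41 for Fam177a, -0.70 for Mrgprf, -0.77 for Col23a1, -0.58 for Cpxm1, 0.57 for Sdcbp2 and 0.69 for Bicc1. BICC1_1 minus the arrays labelled BICC1_3 was -0.52 for Fam177a, -0.59 for Hsd3b2, -0.62 for Mrgprf, -0.60 for Cpxm1, 0.54 for Sdcbp2 and -0.80 for Bicc1. BICC1_2 minus the arrays labelled BICC1_3 was -1.49 for Bicc1 and passed for none of the 6 genes, save Hsd3b2 in the authors' deposited table (-0.29, adjusted p = 0.0477).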

How the results depend on the processing

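As reported, 2, 5 and 1 genes passed against SC for BICC1_1, for BICC1_2 and for the arrays labelled BICC1_3 (BICC1_3 below), 27, 7 and 11 in BICC1_1 minus BICC1_2, BICC1_1 minus BICC1_3 and BICC1_2 minus BICC1_3, and 4 in the contrast of Bicc1-lowering groups with the others. In the same order median scaling gave 0, 2, 0, 2, 0, 2 and 1. Under it the median of all genes lay at -0.01 to 0.06, and at an unadjusted p under 0.05 the fit as reported had 589 genes in BICC1_1 minus SC, 883 in BICC1_3 minus SC and 582 in BICC1_1 minus BICC1_3. Array quality weights gave 30, 60 and 14 against SC, 71 in BICC1_1 minus BICC1_2 and 7 in the 4-group contrast. Separate fits gave 0 for BICC1_1 and 0 for BICC1_3 against SC, and 5, 0 and 2 between siRNAs. The deposited log2 table gave 2 in BICC1_3 minus SC and 17 in BICC1_2 minus BICC1_3, and testing every kept probe gave 1 in BICC1_1 minus SC. Without the 3 arrays that stood apart the counts were 11 in BICC1_2 minus SC, 0 in BICC1_3 minus SC, 42 in BICC1_1 minus BICC1_2 and 7 in BICC1_2 minus BICC1_3. Leaving out 1 array gave 0 to 5, 2 to 9, 0 to 12, 3 to 45, 1 to 8, 5 to 19 and 3 to 6. With the replicate number as a block the counts were 1 in BICC1_1 minus SC, 4 in BICC1_3 minus SC, 6 in BICC1_1 minus BICC1_2, 2 in BICC1_1 minus BICC1_3 and 6 in BICC1_2 minus BICC1_3. The block lost 8 of the 12 calls of the 6 genes, brought Col23a1 in BICC1_2 minus SC past the threshold (adjusted p = 0.0105), and turned the within-group r of Hsd3b2 (0.0445, added after seeing the data). The labels do not say what the numbers share, and over all genes they did not meet the rule set for pairing: over 24 same-numbered pairs the correlation of deviations was -0.594 to 0.609, 9 were over 0.1, and 6 of 16 arrays correlated best with their own number, though Col23a1 and Cpxm1 lay above their group means on replicate 1 and below on replicate 4 in all 4 groups. Of the 12 calls, median scaling lost 11, separate fits 10 and the omission of the 3 arrays 6, and 183 of 310 alternative values passed. Among differences, signs turned for Fam177a in BICC1_3 minus SC (-0.0218 with median scaling, -0.0182 to 0.0639 with 1 array left out), and Cpxm1 (-0.0912 to 0.0185) and Sdcbp2 (-0.0871 to 0.0389) in BICC1_2 minus BICC1_3. The within-group r with Bicc1 turned with median scaling for Fam177a (0.19), Hsd3b2 (0.46), Mrgprf (0.44) and Sdcbp2 (0.54), as Spearman's rho for Mrgprf (0.0088), and without the 3 arrays for Cpxm1 (-0.13) and Sdcbp2 (0.26). The cause of these changes was not tested. Col23a1, Cpxm1 and the second Sdcbp2 probe lay close to the background, which limits their folds.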
